A study of Mus musculus with 5 samples.

Results

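The platelet-derived growth factor (PDGF) ligands Pdgfa, Pdgfb, Pdgfc and Pdgfd and their receptors Pdgfra and Pdgfrb were compared between mouse eye tumors and normal uvea. The 6 genes were found by their symbols in the deposited gene table. They occupied 7 of its 24768 loci, because the symbol Pdgfd stood at 2 of them. The 3 tumor libraries came from eye tumors of adult AAV5-Cre;Lats1/2 fl/fl mice, and the 2 wild-type libraries from uvea (the iris, ciliary body and choroid) of adult wild type mice. In the mutants an adeno-associated virus of serotype 5 carried Cre recombinase, which cuts out the floxed parts of Lats1 and Lats2, kinase genes of the Hippo pathway that restrain the coactivators YAP and TAZ. The labels used here name neither the promoter of the Cre nor the cells that it reached, and do not say whether a library held 1 animal or several. P-values therefore measure the spread between these libraries, which may in part be technical.

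PDGFs are secreted dimers that drive growth and migration of mesenchymal and glial cells. PDGF-A and PDGF-B are cut to their active form by furin-like proteases before secretion. PDGF-C and PDGF-D leave the cell with an inhibitory CUB domain that plasminogen activators and related proteases remove outside it. The receptor alpha chain binds PDGF-A, PDGF-B and PDGF-C, and the beta chain binds PDGF-B and PDGF-D. In the vessel wall, PDGF-B from endothelium recruits pericytes that carry the beta chain, and in the mouse retina PDGF-A from neurons acts on astrocytes that carry the alpha chain.

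The starting sequences were looked at for the members found in the RefSeq promoter table (build GRCm38.p6), namely Pdgfa, Pdgfc, Pdgfd and Pdgfra. Their pattern across the libraries played no part in this choice. The 250 bases before a start site of each are given 5′ to 3′ on the gene's strand. Capitals mark matches on either strand to GGAATG (the core bound by TEAD factors, the DNA-binding partners of YAP), GGGCGG (SP and KLF factors) or TGANTCA (AP-1). Pdgfa lies at chr5:138994945-138995194 on the minus strand, Pdgfd at chr9:6168236-6168485, Pdgfc at chr3:81036166-81036415 and Pdgfra at chr5:75152001-75152250, the last 3 on the plus strand.
Pdgfa: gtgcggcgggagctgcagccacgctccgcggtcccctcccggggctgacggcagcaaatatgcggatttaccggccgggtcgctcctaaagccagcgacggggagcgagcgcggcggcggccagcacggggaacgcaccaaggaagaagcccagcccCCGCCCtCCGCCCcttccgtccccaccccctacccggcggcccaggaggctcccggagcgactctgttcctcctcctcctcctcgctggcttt
Pdgfd: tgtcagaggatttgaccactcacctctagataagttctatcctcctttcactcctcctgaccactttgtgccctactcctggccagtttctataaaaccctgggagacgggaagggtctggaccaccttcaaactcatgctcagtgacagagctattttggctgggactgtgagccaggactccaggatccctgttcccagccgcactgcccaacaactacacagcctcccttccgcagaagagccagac
Pdgfc: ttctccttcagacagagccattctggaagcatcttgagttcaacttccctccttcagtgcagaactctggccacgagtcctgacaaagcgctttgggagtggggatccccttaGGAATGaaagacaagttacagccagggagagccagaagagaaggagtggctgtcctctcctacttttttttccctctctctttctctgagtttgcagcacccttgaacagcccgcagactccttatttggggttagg
Pdgfra: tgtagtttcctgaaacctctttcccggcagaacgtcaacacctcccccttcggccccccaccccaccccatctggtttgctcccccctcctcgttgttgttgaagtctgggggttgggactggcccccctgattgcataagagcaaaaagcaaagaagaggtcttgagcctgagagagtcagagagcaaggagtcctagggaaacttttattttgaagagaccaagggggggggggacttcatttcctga
The Pdgfa window held 2 matches to GGGCGG, and a window before its other listed start site held 1. Pdgfc held 1 match to GGAATG, at position -137 counted back from the start site. The windows of Pdgfd and Pdgfra held none of the 3 motifs. Among all 32851 promoter windows of the table, 12.6% held GGAATG, 32.7% held GGGCGG and 6.75% held TGANTCA. A match describes letters in the window and says nothing of binding.

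No PDGF locus passed the test for a difference between tumors and wild type, although mean FPKM in tumors was 4.72 times that in wild type for Pdgfb and 4.17 times for Pdgfrb. All 7 loci entered an edgeR quasi-likelihood test with Benjamini-Hochberg adjustment over 15241 loci, and 0 of 7 had an adjusted p under 0.05, against 34.1% of all tested loci. At an unadjusted p under 0.05 there were 4 (Pdgfb, Pdgfrb, Pdgfra and the minor Pdgfd locus), and DESeq2, another count test, called the same 4 at an adjusted p under 0.05, against 43.3% of the loci it tested. At these 4 loci all tumor libraries lay above both wild-type libraries in FPKM (fragments scaled for transcript length and depth), whereas 69.5% of all tested loci had groups that did not overlap. The members thus did not stand out from the table at large by these counts. With 1 tumor library left out, edgeR called 29.7% of all loci without library 1, 40.8% without library 2 and 35.2% without library 3, and the members passing in these fits were 1, 2 and 3 of 7.

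**Figure D1:**
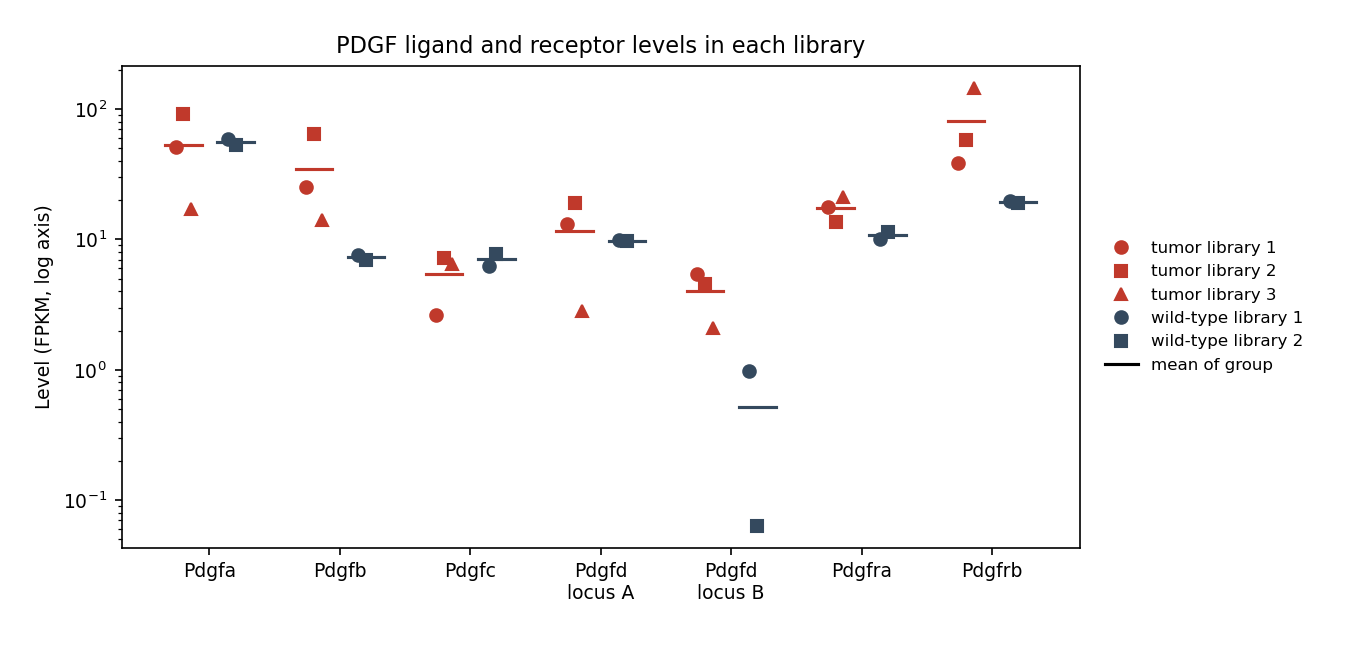
Level of each PDGF locus in FPKM on a log axis, with 1 symbol per library (red, tumor; blue, wild type) and a bar at the group mean. The tumors spread widely and in different orders, while the wild-type libraries lie close together except at Pdgfd locus B, where they were at 0.970 and 0.0635 FPKM.

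The receptor genes were both higher in every tumor. Pdgfrb, the beta chain gene (chromosome 18, 61045150 to 61085061, plus strand), had levels of 38.8, 57.6 and 145 FPKM across tumor libraries 1, 2 and 3, and of 19.6 and 19.0 FPKM in wild-type libraries 1 and 2. Tumor library 3 stood far above the other tumors, and the lowest tumor was still 1.98 times the highest wild-type library. The mean was 80.5 ± 56.7 FPKM in tumors (SD, n = 3) and 19.3 ± 0.386 FPKM in wild type (SD, n = 2). Its log2 fold change of tumor over wild type was 2.11 (SE 0.64, 95% interval 0.45 to 3.76), short of the threshold with edgeR (adjusted p = 0.0598) and past it with DESeq2 (2.07, adjusted p = 0.00346). It also passed in edgeR without tumor library 1 (2.44, adjusted p = 0.0426) and without tumor library 3 (1.36, adjusted p = 0.0243), the tumor with the highest level.

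Pdgfra, the alpha chain gene (chromosome 5, 75152292 to 75198215, plus strand), differed less and varied less. It was at 17.6, 13.7 and 21.3 FPKM in the tumors and at 10.1 and 11.4 FPKM in wild type. No tumor reached as low as wild type, but the lowest tumor was 1.197 times the highest wild-type library. The mean was 17.5 ± 3.80 FPKM in tumors (SD, n = 3) and 10.8 ± 0.906 FPKM in wild type (SD, n = 2). On the log2 scale the fold change was 0.74 (SE 0.23, 95% interval 0.16 to 1.33, edgeR adjusted p = 0.0603). Pdgfra passed with DESeq2 (0.71, adjusted p = 0.0296) and in edgeR without tumor library 2 (0.85, adjusted p = 0.0233).

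Among the 4 main ligand loci, Pdgfb alone was higher in every tumor. It encodes the B chain (chromosome 15, 79995874 to 80014977, minus strand), the ligand of both receptor chains. Its level was 25.3, 63.9 and 14 FPKM in tumor libraries 1, 2 and 3 and 7.59 and 6.99 FPKM in wild type. Tumor library 2 was 4.56 times tumor library 3, yet the lower of them was 1.84 times the highest wild-type library. The mean was 34.4 ± 26.1 FPKM in tumors (SD, n = 3) and 7.29 ± 0.426 FPKM in wild type (SD, n = 2). The log2 fold change was 2.24 (SE 0.72, 95% interval 0.40 to 4.09, edgeR adjusted p = 0.0665), and 2.21 with DESeq2 (adjusted p = 0.00506). In edgeR it passed without tumor library 2 (1.40, adjusted p = 0.0399) and without tumor library 3 (2.61, adjusted p = 0.0294).

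Pdgfa, the A chain gene (chromosome 5, 138976014 to 138997370, minus strand), was the most abundant ligand per length in all 5 libraries and had no common direction. Its level was 51.2, 91.7 and 17.05 FPKM in the tumors and 58.7 and 52.7 FPKM in wild type. Tumor library 2 lay above wild type and tumor libraries 1 and 3 below it. The mean was 53.3 ± 37.4 FPKM in tumors (SD, n = 3) and 55.7 ± 4.21 FPKM in wild type (SD, n = 2). On the log2 scale the fold change was -0.18, and its 95% interval, -1.74 to 1.38, allows a change in either direction (edgeR adjusted p = 0.837). Without tumor library 3 its sign turned, to 0.20 (edgeR adjusted p = 0.641).

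Pdgfc, the ligand that tissue plasminogen activator can release (chromosome 3, 81036416 to 81214040, plus strand), was low everywhere. It was at 2.63, 7.21 and 6.52 FPKM in the tumors and 6.30 and 7.76 FPKM in wild type, so that tumor library 1 alone lay outside the range of the others. The log2 fold change was -0.32 (SE 0.46, 95% interval -1.50 to 0.87, edgeR adjusted p = 0.62), and 0.020 without tumor library 1 (edgeR adjusted p = 0.939).

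Pdgfd, a ligand of the beta chain that is activated outside the cell (chromosome 9, 6168584 to 6378850, plus strand), stood at 2 loci with the same span. The main one, called locus A here, had 13.1, 19.0 and 2.82 FPKM in the tumors and 9.82 and 9.78 FPKM in wild type. Tumor library 3 lay far below wild type and the other tumors above it. The log2 fold change was 0.41 (SE 0.83, 95% interval -1.74 to 2.55, edgeR adjusted p = 0.727). It passed without tumor library 3, at 0.88 (edgeR adjusted p = 0.0256), and had the opposite sign without tumor library 2 (-0.073, edgeR adjusted p = 0.955).

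The other locus, locus B, held few fragments, with 52.1, 43.1 and 18.8 estimated in the tumors and 8.84 and 0.536 in wild type. Its level was 5.40, 4.53 and 2.08 FPKM in the tumors against 0.970 and 0.0635 FPKM in wild type, and the log2 fold change was 2.86 (SE 0.96, 95% interval 0.39 to 5.33, edgeR adjusted p = 0.075). Neither locus held whole fragments, but their sums were whole in each library, at 574, 684 and 97 fragments in the tumors and 313 and 293 in wild type. The estimates thus add up as 1 set of fragments divided between the loci, and the size of either fold is uncertain. Summed before the edgeR fit, a step chosen after the files were seen, both loci together gave 0.51 on the log2 scale (adjusted p = 0.639). Ddi1 lies inside the span on the other strand, and the strand setting of the counting is not given in the sources used here.

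**Figure D2:**
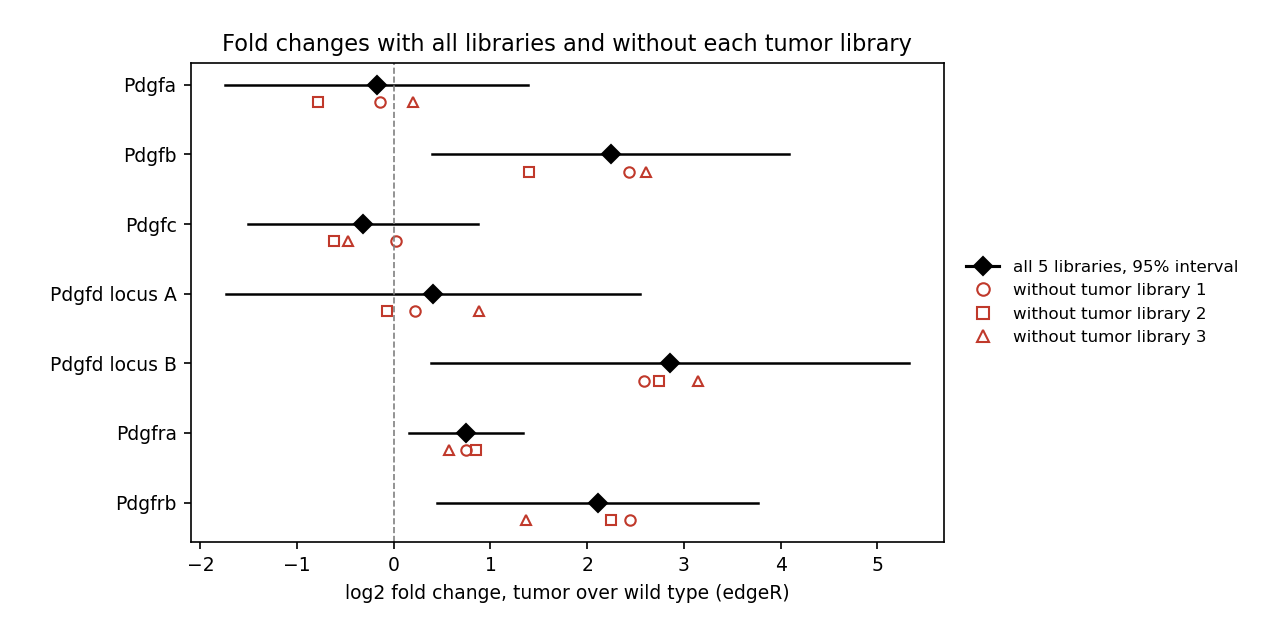
Log2 fold change of tumor over wild type for each PDGF locus from edgeR, with all 5 libraries (diamonds, 95% interval) and without each tumor library in turn (open symbols). Pdgfb, Pdgfrb, Pdgfra and Pdgfd locus B stay above 0 in every fit shown, whereas Pdgfa, Pdgfc and Pdgfd locus A cross 0 when 1 tumor is left out.

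The make-up of the ligand RNA differed between the groups in the same direction in every tumor for Pdgfb and Pdgfa. Per length, Pdgfb made up 27.4%, 35.1% and 34.7% of the summed FPKM of the 4 ligands in tumor libraries 1, 2 and 3, and 9.21% and 9.05% in wild type. Pdgfa made up 55.5%, 50.5% and 42.2% in the tumors and 71.2% and 68.2% in wild type. Neither share overlapped between the groups, and the ratio of Pdgfb to Pdgfa was 0.495, 0.696 and 0.821 in the tumors against 0.129 and 0.133 in wild type. The mean difference, tumor minus wild type, was 23.3 percentage points for Pdgfb and -20.4 for Pdgfa. Each had p = 0.2 in an exact two-sided permutation test, the smallest that 3 libraries against 2 allow, and p = 0.333 adjusted over the 5 shares tested.

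Pdgfc and Pdgfd did not shift in 1 direction. Pdgfc held 2.85%, 3.97% and 16.1% of ligand FPKM in the tumors and 7.64% and 10.04% in wild type, a mean difference of -1.19 percentage points (exact permutation p = 1). Pdgfd, by locus A, held 14.2%, 10.4% and 6.98% in the tumors and 11.9% and 12.7% in wild type (difference -1.73, exact permutation p = 0.8). Shares of a sum are tied to each other, so that a higher share of one goes with lower shares of the rest.

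On the receptor side the alpha chain had a lower share in every tumor. Pdgfra held 31.2%, 19.2% and 12.8% of the summed receptor FPKM in the tumors and 34.1% and 37.5% in wild type, a difference of -14.8 percentage points (exact permutation p = 0.2, again the smallest possible). The ratio of Pdgfrb to Pdgfra was 2.205, 4.22 and 6.83 in the tumors against 1.93 and 1.67 in wild type, and tumor library 1 stood close to wild type. The 4 ligands summed to 92.3, 182 and 40.4 FPKM in the tumors and 82.4 and 77.2 FPKM in wild type. The receptors summed to 56.5, 71.3 and 166 FPKM in the tumors and 29.7 and 30.4 FPKM in wild type. Tumor library 3 thus had the least ligand and the most receptor RNA of the tumors, with 0.243 FPKM of ligands per FPKM of receptors, against 1.64 and 2.55 in tumor libraries 1 and 2 and 2.77 and 2.54 in wild type.

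**Figure D3:**
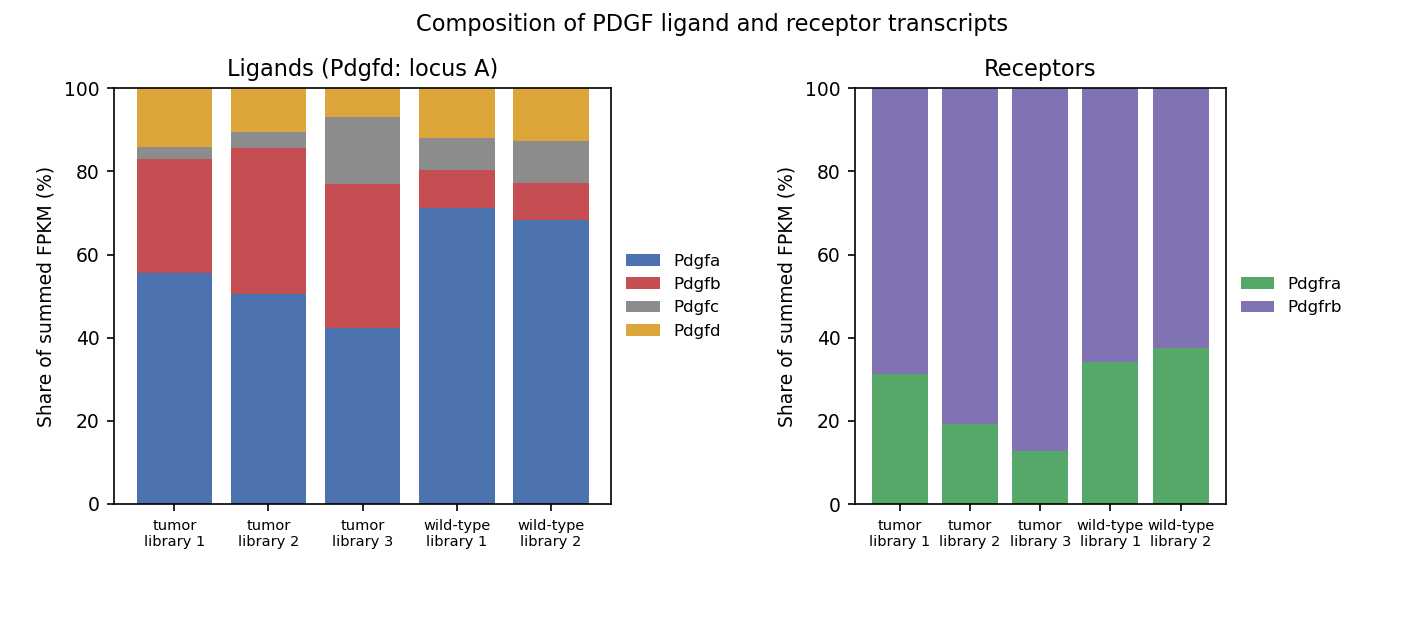
Share of each ligand in the summed FPKM of the 4 ligands (left) and of each receptor in the summed FPKM of both (right), with 1 bar per library. Pdgfb takes 27.4% to 35.1% of the ligand sum in the tumors and 9.05% to 9.21% in wild type.

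The order of the levels differed between the groups. In the tumors it ran from Pdgfrb (80.5 FPKM) through Pdgfa (53.3), Pdgfb (34.4), Pdgfra (17.5), Pdgfd locus A (11.6) and Pdgfc (5.46) to Pdgfd locus B (4.003), and the ranges of all neighbours in this order overlapped. In wild type it ran from Pdgfa (55.7 FPKM) through Pdgfrb (19.3), Pdgfra (10.8), Pdgfd locus A (9.80), Pdgfb (7.29) and Pdgfc (7.03) to Pdgfd locus B (0.517). There the ranges of Pdgfb and Pdgfc alone overlapped among neighbours.

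The members did not vary as 1 group over the libraries. Likeness was measured as the root mean square difference of log2 CPM (counts scaled to library size), each locus centred on its own mean over the 5 libraries. The closest pair was Pdgfa and Pdgfd locus A (0.457), both highest in tumor library 2 and lowest in tumor library 3, and next came Pdgfrb and Pdgfra (0.771), both highest in tumor library 3. The most distant pair was Pdgfrb and Pdgfd locus A (1.86). Among 7695 other loci at 10 FPKM or more in a group, those most like Pdgfb were Col4a2 (0.112) and Col4a1 (0.239), the genes of the main basement membrane collagen. Col4a2 was at 58.8, 169.9 and 42.0 FPKM in the tumors and 20.8 FPKM in both wild-type libraries. Pdgfd locus A was closest to Serpine2 (0.111), a protease inhibitor gene. Pdgfrb was closest to Fam46b (0.0884) and Igtp (0.113), an interferon-induced GTPase gene at 22.9, 31.0 and 82.2 FPKM in the tumors and 9.496 and 9.12 FPKM in wild type. Pdgfra was closest to Cyb5r4 (0.0274) and Nipa2 (0.0392), Pdgfc to Ppap2b (0.126) and Zfp362 (0.133), and Pdgfa to Ank (0.177) and Camk2n1 (0.178).

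Genes that release PDGFs or bind beside their receptors were mostly higher in the tumors. Of 10 genes for ligand handling and co-receptors 6 rose with edgeR and 4 did not pass, with a median log2 fold change of 1.10, against 0.048 over all tested loci, of which 18.7% rose and 15.4% fell. Plau, the urokinase gene whose product can activate PDGF-D, was at 27.0, 22.8 and 28.9 FPKM in the tumors and 4.94 and 4.76 FPKM in wild type, and rose by 2.50 (SE 0.17, edgeR adjusted p = 0.0038). Plat, the tissue plasminogen activator gene, was at 40.6, 51.4 and 23.4 FPKM in the tumors and 15.02 and 15.6 FPKM in wild type, and rose by 1.38 (edgeR adjusted p = 0.0434). St14, the gene of matriptase, another PDGF-D protease, rose by 1.35 (edgeR adjusted p = 0.0163).

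Nrp1, a co-receptor gene whose locus also carries the name Mir1903, rose by 0.94 (edgeR adjusted p = 0.0171), and Sparc, whose matrix protein binds PDGF-B, rose by 1.26 (edgeR adjusted p = 0.021) to 2043 to 2340 FPKM in the tumors, against 927 and 936 FPKM in wild type. Furin, the A and B chain processing protease gene, was at 27.98, 45.2 and 40.6 FPKM in the tumors and 50.5 and 48.6 FPKM in wild type (log2 fold change -0.34, edgeR adjusted p = 0.327). Lrp1, an endocytic receptor gene that partners the beta chain, was at 71.1, 103.9 and 142 FPKM in the tumors and 146 and 150.2 FPKM in wild type (log2 fold change -0.44, edgeR adjusted p = 0.358). Both had groups that did not overlap and neither passed. The count of loci that rose was 4 to 6 when a tumor library was left out.

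Downstream of the receptors the changes were mixed. Of 17 genes that relay the signal 2 rose, 3 fell and 12 did not pass, with a median of 0.099. Over all tested loci 18.7% rose and 15.4% fell, the shares to set beside each list count below from all libraries. By these shares the relay counts did not set the genes apart. Fyn, a Src-family kinase gene, rose by 1.66 (edgeR adjusted p = 0.00952), while Pik3r1, the regulatory subunit of phosphoinositide 3-kinase, fell by 0.99 (edgeR adjusted p = 0.0129) and Plcg1, a phospholipase gene, fell by 0.99 (edgeR adjusted p = 0.0155). Without tumor library 2 there were 5 falls, in a fit where 3112 of 15062 tested loci fell, and without tumor library 1 or 3 there was 1 rise.

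Of 12 genes that restrain the signal 5 rose, 3 fell and 4 did not pass, with a median of 0.66. The loci that rose included Cbl, a ubiquitin ligase gene of receptor degradation (1.12, edgeR adjusted p = 0.013). The 3 that fell encode feedback inhibitors that growth factor signalling through ERK is known to induce. Dusp6 was at 40.8, 37.0 and 46.8 FPKM in the tumors and 97.3 and 106 FPKM in wild type (log2 fold change -1.24, edgeR adjusted p = 0.0102). Spry2 and Spry4, chosen after their values were seen, had log2 fold changes of -1.73 (edgeR adjusted p = 0.0265) and -2.23 (edgeR adjusted p = 0.0423).

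Of 16 loci of immediate early genes, which growth factors switch on within minutes but which many other signals also induce, 7 rose and 9 did not pass (median 0.92). Myc, a growth-promoting transcription factor gene, was at 17.3, 21.5 and 26.03 FPKM in the tumors and 1.42 and 1.82 FPKM in wild type, and rose by 3.74 (SE 0.25, edgeR adjusted p = 0.00359). Klf10 at its main locus rose by 1.81 (edgeR adjusted p = 0.00607) and Atf3 by 2.30 (edgeR adjusted p = 0.0138). Fos rose by 0.83 (edgeR adjusted p = 0.0437), whereas Egr1 was at 6.05, 18.1 and 5.90 FPKM in the tumors and 20.4 and 21.7 FPKM in wild type (log2 fold change -1.02, edgeR adjusted p = 0.208). Egr2 and Egr3, chosen after their values were seen, rose by 3.20 (edgeR adjusted p = 0.0213) and 2.18 (edgeR adjusted p = 0.0345). The count of rises was 5 to 8 when a tumor library was left out.

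Relatives of the PDGF system moved in both directions. Of 16 loci of the related class III receptors, their ligands and the structurally related VEGF family 5 rose, 5 fell and 6 did not pass (median 0.59). Vegfa, the vascular growth factor gene, was at 22.5, 32.8 and 20.7 FPKM in the tumors and 90.8 and 95.5 FPKM in wild type (log2 fold change -1.85, edgeR adjusted p = 0.00972). The locus of Dnajc4 and Vegfb fell by 1.71 (edgeR adjusted p = 0.00717), Pgf by 2.14 (edgeR adjusted p = 0.00877) and Kit, the melanocyte and mast cell receptor gene, by 1.80 (edgeR adjusted p = 0.0185). Csf1r, the macrophage receptor gene, was at 158, 142 and 265 FPKM in the tumors and 86.1 and 96.5 FPKM in wild type (1.03, edgeR adjusted p = 0.0735). Pdgfrl, which encodes a secreted protein like the ligand-binding part of the PDGF receptors, was at 125, 55.3 and 121 FPKM in the tumors and 32.6 and 35.7 FPKM in wild type, and rose by 1.60 (SE 0.41, edgeR adjusted p = 0.0396). Without tumor library 1 the count of rises was 3.

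**Figure D4:**
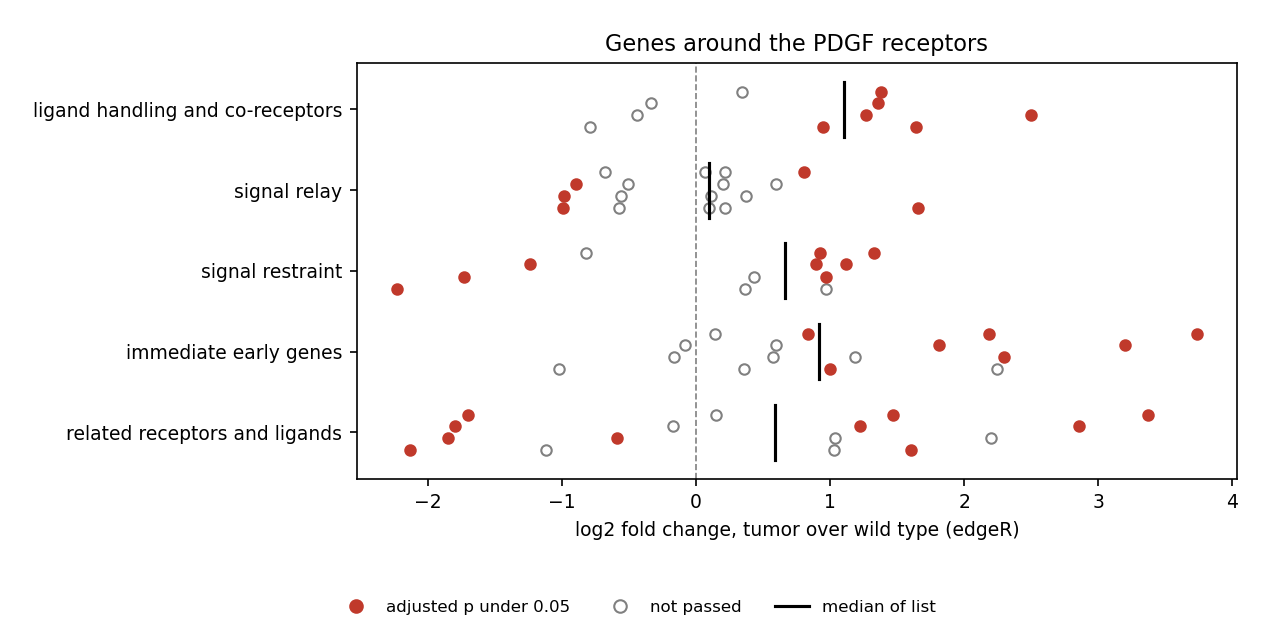
Log2 fold change of tumor over wild type (edgeR) for each tested locus of the 5 lists of genes around the PDGF receptors, filled where the adjusted p was under 0.05, with a bar at the list's median. The ligand handling list has 6 filled points, all above 0, and the relatives have 5 on each side.

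Markers of the cells that can carry these genes differed between libraries too. In bulk tissue, fewer cells of a type and less RNA per cell cannot be told apart. Of 11 pericyte markers 1 rose and 1 fell, and their summed FPKM was 643, 267 and 210 in the tumors and 168 and 174 in wild type. Des, a muscle filament gene on this list, gave 408 FPKM of the sum in tumor library 1, which also had the most skeletal muscle marker RNA. Without Des the pericyte sums were 234, 220 and 146 FPKM in the tumors and 142 and 147 FPKM in wild type. Of 7 smooth muscle markers 3 fell and 4 did not pass, with sums of 426, 542 and 678 FPKM in the tumors and 729 and 701 FPKM in wild type. Of 12 fibroblast markers 6 rose and 2 fell, with sums of 4301, 2998 and 4823 FPKM in the tumors and 2222 and 2413 FPKM in wild type.

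Beside Pdgfrb, pericyte and fibroblast markers were of mixed order. In tumor library 3, highest in Pdgfrb, 2 of 11 pericyte markers were at their highest among the tumors and 6 at their lowest. Rgs5 was at 80.7, 53.8 and 11.6 FPKM in the tumors, against 61.0 and 68.4 FPKM in wild type. Cspg4 was at 3.40, 5.97 and 1.11 FPKM in the tumors, against 7.09 and 7.14 FPKM in wild type. Both were lowest in tumor library 3, whereas Anpep and Notch3, chosen after their values were seen, followed the order of Pdgfrb. Anpep was at 9.27, 13.1 and 35.5 FPKM in the tumors, against 8.51 and 9.36 FPKM in wild type. Notch3 was at 9.83, 14.2 and 21.9 FPKM in the tumors, against 11.2 and 10.6 FPKM in wild type. Of 12 fibroblast markers 4 were highest and 7 lowest in tumor library 3 among the tumors. Col1a1, the main collagen gene of fibroblasts, was highest there (755, 599 and 1419 FPKM in the tumors, against 157 and 155 FPKM in wild type). Dcn, a matrix proteoglycan gene, was lowest there (809, 491 and 448 FPKM in the tumors, against 1206 and 1373 FPKM in wild type). Tumor library 3 had the largest macrophage sum, 13603 FPKM, against 6528 and 4088 FPKM in tumor libraries 1 and 2 and 783 and 763 FPKM in wild type. The part of these cells in the Pdgfrb values was not tested.

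Beside Pdgfb, endothelial markers were not higher as a list. Of 8 endothelial markers 1 fell and 7 did not pass, with sums of 248, 160.2 and 122 FPKM in the tumors and 262 and 244 FPKM in wild type. The list's median log2 fold change was -0.22. Emcn, the marker that fell, was at 22.7, 20.1 and 12.2 FPKM in the tumors and 57.8 and 53.4 FPKM in wild type. Its log2 fold change was -1.55 (edgeR adjusted p = 0.0198). Pecam1 had the highest log2 fold change of the list (0.68, edgeR adjusted p = 0.237). It was at 42.7, 20.5 and 20.1 FPKM in the tumors and 16.96 and 18.9 FPKM in wild type. Of 6 platelet markers, a blood cell known to store PDGF, 4 could be tested. Pf4 rose by 2.48 (edgeR adjusted p = 0.046), Itga2b was at 4.01 to 5.09 FPKM in the tumors and 4.81 and 5.04 FPKM in wild type, and Gp6 was listed at 0 in all tumors and at 0.0787 and 0 FPKM in wild type. Tumor library 2, highest in Pdgfb, had the lowest platelet and macrophage sums of the tumors, at 45.7 and 4088 FPKM. The platelet sum was mostly Pf4, at 98.4, 36.1 and 152 FPKM in the tumors and 20.7 and 14.5 FPKM in wild type. Without Pf4, left out like Des after the values were seen, the platelet sum was highest in tumor library 2, at 7.19, 9.60 and 4.92 FPKM in the tumors and 6.91 and 8.05 FPKM in wild type. Ppbp, chosen after its values were seen, was highest in tumor library 2 (1.53, 5.06 and 0.343 FPKM in the tumors, against 0.852 and 1.29 FPKM in wild type). The part of these cells in the Pdgfb values was not tested.

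Beside Pdgfra, of 7 markers of oligodendrocyte precursors, which carry the alpha chain in brain, and of Schwann cells 5 could be tested and none passed with edgeR. Their sums were 222, 334 and 203 FPKM in the tumors and 257 and 255 FPKM in wild type. Olig2 was listed at 0.0315, 0 and 0 FPKM in the tumors and at 0 in wild type, and Olig1 was at 0 to 0.25 FPKM in the tumors and 0.0378 and 0.0816 FPKM in wild type. Beside Pdgfa, tumor library 2 had the most Gfap, the astrocyte filament gene (15.8, 56.0 and 0.128 FPKM in the tumors, against 9.40 and 8.77 FPKM in wild type), and the most Pax2 (0.174, 9.32 and 0 FPKM, against 0.184 and 0.271 FPKM in wild type). Of the 7 tested markers of inner retina and astrocytes 1 rose, Thy1, and the list's median log2 fold change was -0.73. The list's sums were 302, 372 and 114 FPKM in the tumors and 195 and 188 FPKM in wild type. Thy1, also on the fibroblast list, gave 265, 235 and 95.2 FPKM of these in the tumors and 14.4 and 14.7 FPKM in wild type. It thus made up most of each tumor sum and little of those in wild type. The part of retinal cells in the Pdgfa values was not tested.

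**Figure D5:**
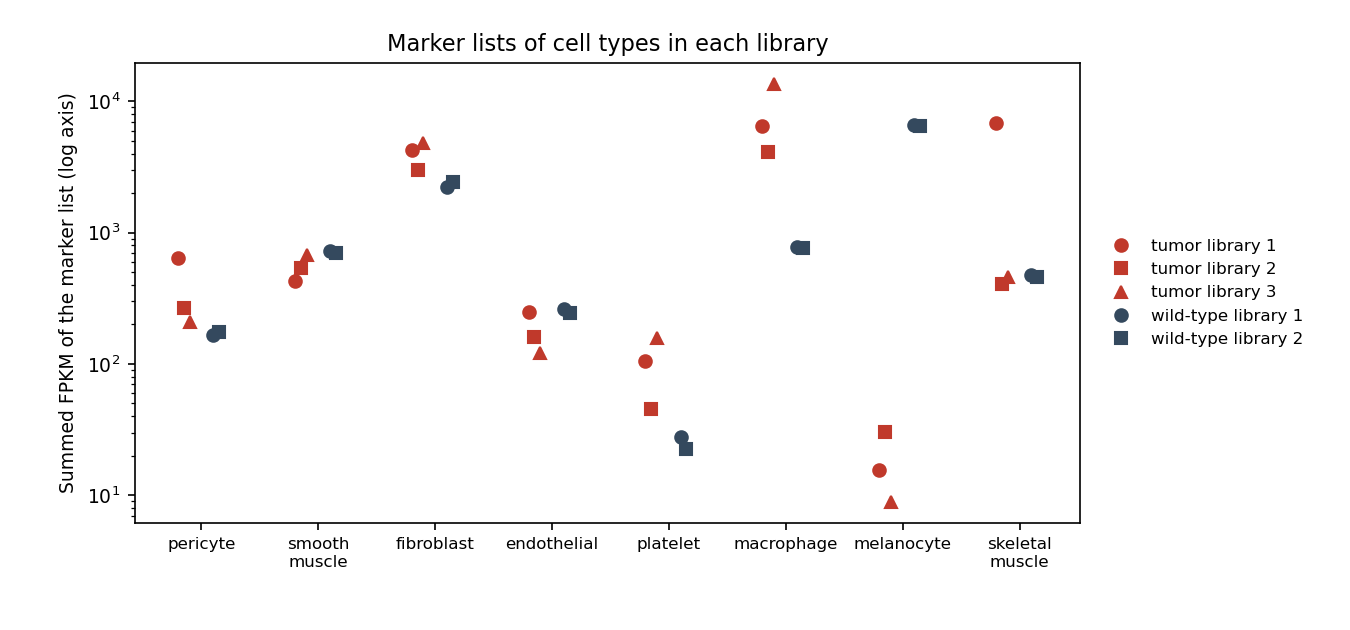
Summed FPKM of 8 marker lists on a log axis, with 1 symbol per library (red, tumor; blue, wild type). The tumors differ most in skeletal muscle (6851 FPKM in tumor library 1, 407 and 459 FPKM in tumor libraries 2 and 3). The melanocyte list lies at 8.88 to 30.1 FPKM in the tumors against 6447 to 6670 FPKM in wild type. Its RNA was not assigned to melanocytes or to pigment epithelium.

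For the series as a whole, the libraries held 12687703 to 14368272 estimated fragments in tumors and 12799991 and 13911934 in wild type, and the PDGF loci other than Pdgfd held 124 to 10090 fragments each. Lats1 was at 2.94 to 3.90 FPKM in the tumors and 7.55 and 8.86 FPKM in wild type, and fell by 1.21 (edgeR adjusted p = 0.0115). Lats2 was at 12.6 to 17.03 FPKM in the tumors and 20.05 and 20.2 FPKM in wild type (log2 fold change -0.62, edgeR adjusted p = 0.0577). The series title calls the tumors uveal melanoma. All 7 genes of the melanocyte list fell, with a median log2 fold change of -8.74. The 8 photoreceptor markers and 6 of 7 pigment epithelium markers fell as well, with medians of -8.19 and -8.31, as did 2 of 7 lens markers. The pigment epithelium gene Rpe65 was at 0.472, 5.97 and 0.686 FPKM in the tumors and 745 and 829 FPKM in wild type. In wild type the pigment epithelium list summed to 14103 and 14191 FPKM, and the melanocyte list to 6670 and 6447 FPKM. Whether RNA of the melanocyte list came from melanocytes or from pigment epithelium was not tested. Its fall therefore cannot be read as a change in melanocytes alone. The part of each cell type in the other falls was not tested either. Of 8 skeletal muscle markers 1 rose, and of 6 epithelial markers 1 rose and 1 fell.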

How the data were processed

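The submitters' processing notes list TopHat2 (2.0.9), Cufflinks (2.2.1), Cuffdiff and build mm10. What each did, the annotation and the strandedness of counting were not stated there. The authors deposited, per library, an estimated count of fragments per locus (unscaled, per the file headers) and an FPKM on their own scaling between libraries. Expected counts were rounded to whole numbers. Before that, 96.8% to 97.1% of values per library were exactly whole as written in the file, with no tolerance. A library's group is the condition that the table names. Its replicate numbers, counted from 0, cannot be matched to the labels' numbers, so they serve as names alone, counted here from 1. Pairs of libraries of a group differed by more than sampling noise (chi-square 102 to 129 per degree of freedom in tumors, 5.43 in wild type), so all 5 were kept.

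Loci without a name (1.52% to 4.37% of fragments in tumors, 2.78% and 2.85% in wild type) stayed out. The rest entered edgeR 4.0.16 under R 4.3.3 with filterByExpr at a minimum count of 10, TMM scaling (factors 0.909 to 1.08 in tumors, 0.982 and 1.00 in wild type) and a quasi-likelihood F-test of tumor against wild type, with no covariate. P-values are two-sided and adjusted by Benjamini-Hochberg over all tested loci. An adjusted p under 0.05 counts as a call, and "rose" and "fell" describe calls only. The SE is the log2 fold change divided by the root of the F statistic, and intervals use the fitted degrees of freedom. Where a gene is said to rise or fall by a number, it is the log2 fold change. Log2 CPM used a prior count of 2. Shares of FPKM were compared by an exact permutation test (scipy 1.17.1). Alternatives were DESeq2 1.42.0, RLE scaling, library size alone, no filter, limma-trend (limma 3.58.1) on log2(FPKM + 1) and log2(FPKM + 0.1), and leaving out each library.

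The members and lists were chosen with earlier results of these data known. Named genes are the members, up to 3 called genes per list with the smallest p, a fixed set of 12 others, defining markers, Lats1 and Lats2, and the 2 loci most like each member. Some genes that this rule names are not reported here. Coordinates of genes are those of GENCODE M21 (GRCm38, the assembly called mm10). Promoter sequences were found for 4 of the genes, with chromosome 18, which holds Pdgfrb, left out of the search. Pdgfd locus A is the one with 2 transcription start entries in the deposited table, and locus B the one with 1.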

Additional observations from a re-analysis of the deposited data

How the results depend on the processing

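DESeq2 moved 4 members past the threshold, Pdgfb (log2 fold change 2.21), Pdgfd locus B (2.86), Pdgfra (0.71) and Pdgfrb (2.07), and library size alone moved Pdgfra (0.75, adjusted p = 0.033) and Pdgfrb (2.08, adjusted p = 0.0469). Limma-trend moved Pdgfd locus B past it (1.72 on log2(FPKM + 1), 3.19 on log2(FPKM + 0.1)) and turned the sign of Pdgfd locus A (-0.074 and -0.13). With RLE scaling and without the filter 1 signal relay gene rose, and with DESeq2 5 fell. Over the whole table DESeq2 called 3282 of 16107 loci lower in the tumors. Summing the Pdgfd loci turned the difference in Pdgfd share to 1.54 percentage points. The cause of these shifts was not tested.

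With 1 library left out, log2 fold changes ranged from -0.78 to 0.20 for Pdgfa, 1.40 to 2.61 for Pdgfb, -0.62 to 0.020 for Pdgfc, -0.073 to 0.88 for Pdgfd locus A, 2.02 to 4.94 for Pdgfd locus B, 0.58 to 0.85 for Pdgfra and 1.36 to 2.44 for Pdgfrb. Differences in share ranged from -23.4 to -16.8 for Pdgfa, 21.9 to 25.8 for Pdgfb, -5.43 to 1.21 for Pdgfc, -3.58 to 0.052 for Pdgfd and -19.8 to -10.6 for Pdgfra. Counts of list genes that rose ranged from 0 to 6 for ligand handling, 0 to 2 for relay, 0 to 5 for restraint, 0 to 8 for immediate early genes and 0 to 6 for relatives, and counts that fell from 0 to 5, 0 to 3, 0 to 1 and 0 to 6 for the last 4. The zeros come from the fits without a wild-type library, where edgeR called 0 loci in the whole table (4085 and 3996 at an unadjusted p under 0.05), with the lone wild-type library assumed to vary like the tumors.

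No paired analysis was possible because the replicate numbers of the deposited table are not tied to those of the labels and the groups hold 3 and 2 libraries. With 3 libraries against 2 and a wide spread among tumors, a log2 fold change of -1 lies within the 95% intervals of Pdgfa, Pdgfc and Pdgfd locus A, so the data do not show that these genes are alike in the groups. Fragment estimates that the authors divide between loci, as for Pdgfd, add an error that was not measured.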

Other observations

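Another gene of the lists, Klf10, also stood at 2 loci. The minor Klf10 locus was at 3.46, 3.77 and 5.10 FPKM in the tumors and 1.41 and 0.304 FPKM in wild type, and its main locus at 16.4, 14.2 and 18.8 FPKM in the tumors and 4.75 and 4.97 FPKM in wild type. As at Pdgfd locus B, the wild-type libraries were close at the main locus and apart at the minor one. The minor Klf10 locus held only 13, 14 and 18 fragments in the tumors and 5 and 1 in wild type. The distance between its wild-type libraries thus rests on few fragments. The locus most like Pdgfd locus B was BC002163, at 46.9, 33.6 and 16.4 FPKM in the tumors and 10.7 and 0.823 FPKM in wild type. The next was Bbc3, a cell death gene, at 17.1, 21.7 and 12.8 FPKM in the tumors and 2.73 and 2.16 FPKM in wild type.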
